A study of Mus musculus with 29 samples.

Results

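Interferon-stimulated genes were followed as a set of 44 mouse genes across cultures of the stromal vascular fraction (SVF), the non-adipocyte cells released by digesting white adipose tissue. Membership goes by symbol and uses no measured value, though the set was chosen with earlier results of these data known. Each symbol was matched to a row of the count table through its Ensembl identifier. All 44 symbols matched 1 row each among the 56953 features, and all 44 had counts in at least 1 of the 29 libraries. Of these, 42 passed the filter on low counts and entered the tests. Mx1 and Mx2, of the family of dynamin-like GTPases, did not. Mx1 had 39 counts in all, spread over 12 libraries, and Mx2 had 92 counts over 26 libraries.

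The cells came from C57BL6/J mice, and all groups shared the same culture of 4 days in PM1 medium with 1 nM basic FGF, so no library lacked the growth factor. Depot was either inguinal (iWAT) or perigonadal (pgWAT) fat, and with the labelled sex this gave 10 male and 9 female libraries of iWAT and 4 male and 6 female libraries of pgWAT, all of bulk RNA made with the full-length Smart-seq3 protocol. No library was treated with an interferon or a virus, and no age is given in the labels. For its in vitro experiments the study's methods name adult mice. The group sizes that the study's methods state differ from these, and the labels were kept. By the study's own description the libraries are technical replicates from a few independent experiments per depot, which the labels do not identify, so p-values, SDs and n refer to wells and not to animals or experiments. Library numbers follow the order of deposition and pair nothing.

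Library totals ran from 315316 to 1102234 counts, and in a single library 3 counts, the limit that a count of 0 allows, stood for 2.58 to 9.76 CPM, the counts scaled to a common library total with TMM factors. Fibroblast markers were high throughout and macrophage markers were present in every library, whereas the defining T and NK cell markers stayed between 0 and 9.50 CPM in sum. In pgWAT the sex-linked transcripts contradicted the label in male libraries 2 and 4 and in female libraries 2 and 3, and female library 1 held both kinds. Group names below are therefore the labels, and every pgWAT male or pgWAT female value is that of libraries so labelled. All 19 iWAT libraries matched.

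Type I interferons bind the receptor made of Ifnar1 and Ifnar2 and activate the kinases Jak1 and Tyk2. The kinases phosphorylate Stat2, which joins Irf9 in the complex ISGF3, and ISGF3 switches on interferon-stimulated genes through a short DNA element in their promoters. The induced proteins sense foreign nucleic acid, degrade or bind viral RNA, block entry and budding of virions, and tag proteins with the ubiquitin-like modifier Isg15. Several of them are also part of the pathway itself, and many cells, fibroblasts and macrophages among them, keep a low level without infection.

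The members differed widely in level. Divided by transcript length (GENCODE M21), the mean over all 29 libraries was highest for Ifitm3 and Ifitm2, membrane proteins that block viral entry, at 3773 and 2278 CPM per kb. Bst2, the tetherin that holds budding virions at the membrane, followed at 1031 CPM per kb and Isg15 at 415. Ifi27, a small membrane protein, stood at 258 CPM per kb and Irf7, the factor that amplifies interferon production, at 126. Ifit3, Oas1a, Ifi35 and Usp18 filled the next places with 99.7, 78.4, 69.6 and 66.4 CPM per kb. At the low end were Ifit2 at 4.58, Rsad2 (viperin) at 3.40, Gbp7 at 2.55, Mx2 at 2.17 and Mx1 at 0.653 CPM per kb. The order is that of means, and single wells of neighbouring members overlapped in their level per kb. Among these pairs were Ifitm3 and Ifitm2, Ifitm2 and Bst2, Bst2 and Isg15, Isg15 and Ifi27, and Ifi27 and Irf7.

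The members varied together between wells of the same group. In iWAT male, library 2 (well B7) held the highest value of the group for 36 of 42 members, whereas it held the highest value of 11.4% of all 8853 genes tested. Among 46 tested interferon-stimulated genes outside the set, 36 were also highest there. In pgWAT male, library 1 (well B8) was highest for 39 of 42 members, against 27.1% of all genes in a group of 4 libraries, and for 40 of the 46 others. The female groups showed this less. In iWAT female, library 7 (well I8) was highest for 21 of 42 members against 10.6% of all genes, and in pgWAT female, library 6 (well O8) was highest for 19 against 20% of all genes. These libraries were picked by the members' own values, so the counts are descriptions and carry no test.

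Ifit3, an RNA-binding effector, had the widest range in iWAT male. It had 411 counts or 804 CPM in library 2 (95% exact Poisson interval 728 to 886) and 4 counts or 12.7 CPM in library 9 (interval 3.45 to 32.4), a ratio of 63.4. In pgWAT male it had 760.3, 72.6, 107 and 81.4 CPM in libraries 1 to 4, so that library 1 stood far above the other three. The intervals cover counting error only, since reads without molecular identifiers are counted too. Isg15 spanned 49.9, 272 and 1033 CPM in iWAT male as lowest, median and highest value, the order used for every such triple below. Its highest value was again that of library 2 and its lowest that of library 7. Usp18, the protease that removes Isg15 from proteins and damps receptor signalling, spanned 19.01, 103 and 379 CPM in iWAT male, with the highest value in library 2 and the lowest in library 9. Not every member followed. Ifi27 had 166 CPM in iWAT male library 2, the lowest value of that group, where the other 9 libraries had 288 to 399.7 CPM. Ifi27 was also low in iWAT female libraries 7 and 8, at 154 and 161 CPM beside 227 to 292 CPM in the other 7.

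**Figure D1:**
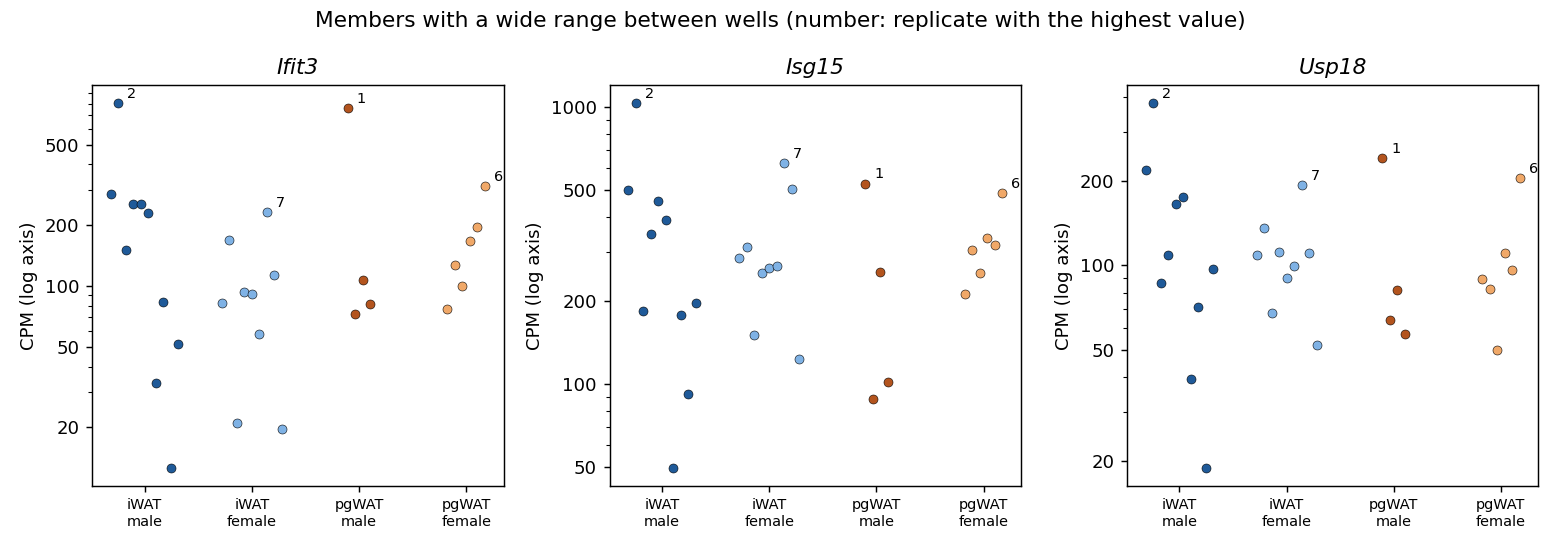
CPM of Ifit3, Isg15 and Usp18 (y, log axis) in every library of the 4 groups (x), 1 point per library, with the number of the library that was highest in its group. The same library leads all 3 genes in its group, library 2 of iWAT male and library 7 of iWAT female, and in pgWAT library 1 of male and library 6 of female.

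For each library the difference of every member from its mean log2 CPM over the 19 iWAT libraries was taken. The median over the 42 members ran from -1.25 in iWAT male library 7 to 1.53 in iWAT male library 2, whereas the median over all genes stayed near 0 in every library. In pgWAT male the median difference was 0.74 in library 1, -0.51 in library 2, -0.11 in library 3 and -0.41 in library 4. In iWAT female it ran from -0.69 in library 9 to 0.61 in library 7, and in pgWAT female from -0.20 in library 1 to 0.58 in library 6. Neighbouring wells lay close in part of the plate. The 4 iWAT male wells A7 to D7 had 37 to 42 of 42 members above the iWAT mean, and wells N7 to P7 of the same group had 4 to 11. Ifit3 ran from 254 to 804 CPM in the former wells and from 12.7 to 83.8 CPM in the latter, with no overlap. The iWAT male wells of column 9 did not form 1 level, with 2 to 37 members above the iWAT mean.

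Other measures moved with these wells. Wells A7 to D7 had totals of 526644 to 849268 counts, summed fibroblast markers of 9531 to 10373 CPM and summed endothelial markers of 40.7 to 78.3 CPM. Wells N7 to P7 had totals of 316738 to 436998 counts, 6387 to 6820 CPM of fibroblast markers and 85.5 to 117 CPM of endothelial markers. Summed macrophage markers overlapped, at 1897 to 2541 CPM in the former and 1761 to 2250 CPM in the latter. Summed proliferation markers did not overlap, at 1037 to 1140 CPM in the former and 1314 to 1355 CPM in the latter. Library 6 of iWAT male, in column 9, shared the high total of wells A7 to D7 but not their marker sums. It had 991322 counts and 37 of 42 members above the iWAT mean. Its sums were 7385 CPM of fibroblast, 125 CPM of endothelial and 1367 CPM of proliferation markers, closer to wells N7 to P7. Every iWAT male library of 526644 counts or more had 37 to 42 members above that mean. Every one of 466827 counts or fewer had 2 to 11. In iWAT female, libraries 3 and 9 had the lowest totals, 477243 and 414749 counts, and 4 and 3 members above that mean. In pgWAT female, libraries 6 and 1 had the lowest totals, 315316 and 318418 counts, and 33 and 17 members above it. In pgWAT male, libraries 4 and 2 had the highest and lowest totals, 923446 and 580789 counts, and 10 and 7 members above it. The part of depth, cell makeup or experiment in the members' levels was not tested, and the labels do not say which wells shared an experiment. In such bulk RNA, fewer cells of a type and less RNA per cell cannot be told apart. In pgWAT male the macrophage sums of libraries 1 and 3 were 7744 and 8275 CPM and those of libraries 2 and 4 were 1215 and 1149 CPM. The 2 libraries with the highest sums had median member differences of 0.74 and -0.11, and the others had -0.51 and -0.41, below both. In pgWAT female, libraries 1 to 3 had sums of 2292, 3531 and 3361 CPM and median differences of -0.20, 0.33 and 0.06. Libraries 4 to 6 of that group had lower sums of 828, 797 and 875 CPM and median differences of 0.13, 0.30 and 0.58. Libraries 2 and 4 of pgWAT male and 1 to 3 of pgWAT female are also those whose sex-linked transcripts did not match.

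**Figure D2:**
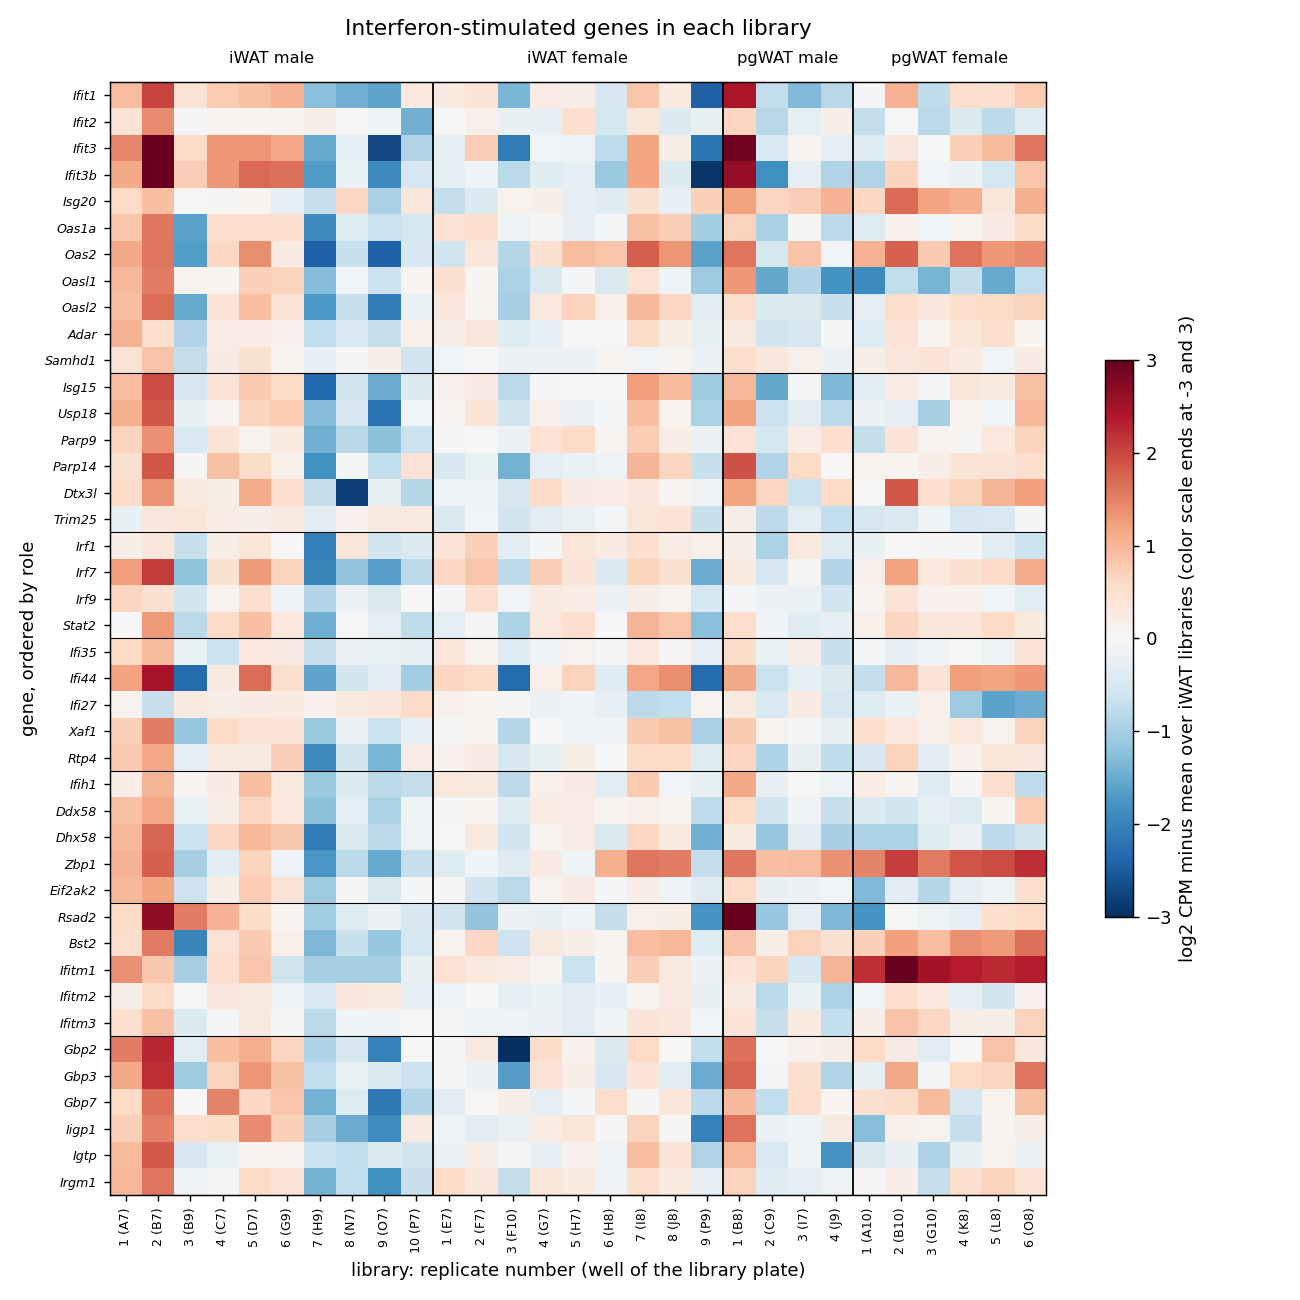
Heat map of the 42 tested members (rows, ordered by role) in the 29 libraries (columns, with replicate number and well), colored by log2 CPM minus the member's mean over the iWAT libraries. The highest median differences were those of iWAT male 2 (1.53), iWAT male 1 (0.81), pgWAT male 1 (0.74) and iWAT male 5 (0.64). The rows of Zbp1 and Ifitm1 are red in pgWAT female.

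Expressed as the SD of log2 CPM between libraries of a group, the median over the members was 0.975 in iWAT male (n = 10), 0.513 in iWAT female (n = 9), 0.633 in pgWAT male (n = 4) and 0.424 in pgWAT female (n = 6). Over all genes tested it was 0.407, 0.368, 0.388 and 0.413 in the same order. In iWAT male 39 of 42 members lay above the median of all genes, and in pgWAT female 22 did. The members' median level of 68.1 CPM was above that of all genes tested, 36.0 CPM. In iWAT male the SD was largest for Ifit3 (1.68), Ifit3b (1.56), Oas2 (1.52), Ifi44 (1.49) and Irf7 (1.42). It was smallest for Trim25 (0.235), the ubiquitin ligase that activates the sensor RIG-I, and for Ifitm2 (0.318), Ifi27 (0.326) and Ifitm3 (0.464).

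**Figure D3:**
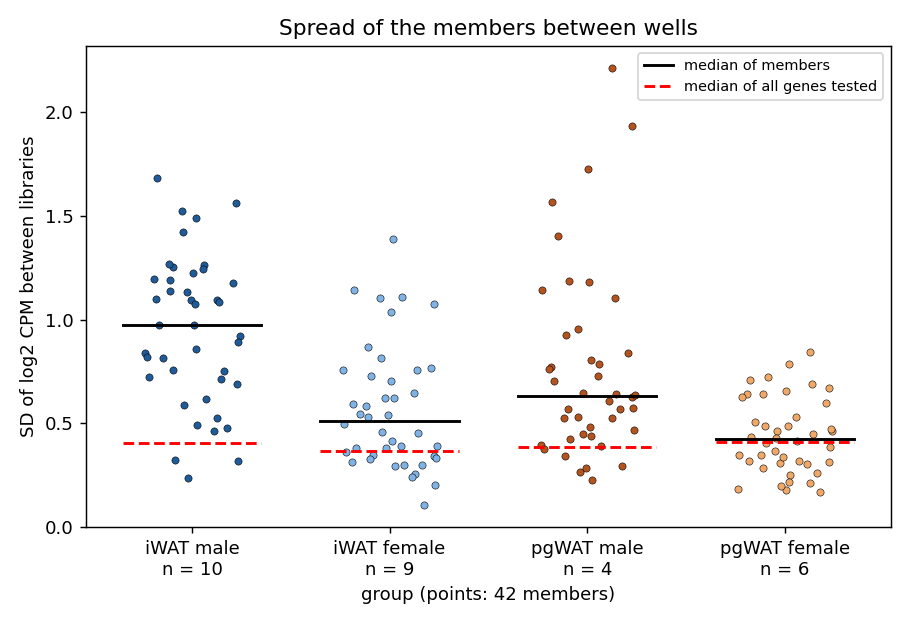
SD of log2 CPM between libraries (y) for the 42 tested members (points) in each group (x), with the median of the members (black line) and of all genes tested (red dashed line). The members' median is 0.975 in iWAT male against 0.407 for all genes, and the medians nearly coincide in pgWAT female at 0.424 and 0.413.

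Transcripts of interferon genes were hardly seen, and interferon protein was not measured. The 20 interferon genes listed as ligands had 2 counts in all 29 libraries, 1 each of Ifnb1 and Ifng. For a gene with a count of 0 the pooled totals allow up to 0.164 CPM as a mean over all libraries. In single libraries the limit was higher, 5.87 CPM in iWAT male library 2 and 5.21 CPM in pgWAT male library 1. Cxcl10, a chemokine that interferons induce, had 210.05 CPM in pgWAT male library 1 and 1.07 to 3.46 CPM in the other 3 libraries of that group. In iWAT male library 2 it had 27.4 CPM, beside 28.1 CPM in library 3, whose median member difference was -0.37.

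Promoters of Ifit3, Ifit3b, Ifit1, Isg15 and Bst2, which moved together, were picked for matches to the core letters of the element that ISGF3 binds. That of Trim25, the member with the smallest SD in iWAT male, is set beside them. Being picked in this way, they cannot show whether the motif goes with the spread. Given are 200 bases before the annotated start, as RefSeq gives them on GRCm38.p6, which is not the build of the counts (GRCm39). Each is written 5′ to 3′ on the strand of its gene, and capitals mark bases in a match to GAAANNGAAA on either strand. Matches may overlap each other.
Ifit3: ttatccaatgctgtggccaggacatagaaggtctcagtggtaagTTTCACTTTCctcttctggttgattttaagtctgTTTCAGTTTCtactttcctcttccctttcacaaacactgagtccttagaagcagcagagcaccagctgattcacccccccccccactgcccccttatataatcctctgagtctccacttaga
Ifit3b: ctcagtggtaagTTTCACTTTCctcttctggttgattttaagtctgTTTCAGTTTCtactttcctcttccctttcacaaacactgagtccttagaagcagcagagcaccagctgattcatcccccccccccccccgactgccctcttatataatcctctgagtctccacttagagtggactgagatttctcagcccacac
Ifit1: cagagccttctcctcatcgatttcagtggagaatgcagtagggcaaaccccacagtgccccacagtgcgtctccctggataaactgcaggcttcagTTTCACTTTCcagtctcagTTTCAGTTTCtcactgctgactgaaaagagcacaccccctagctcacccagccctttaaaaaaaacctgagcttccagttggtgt
Isg15: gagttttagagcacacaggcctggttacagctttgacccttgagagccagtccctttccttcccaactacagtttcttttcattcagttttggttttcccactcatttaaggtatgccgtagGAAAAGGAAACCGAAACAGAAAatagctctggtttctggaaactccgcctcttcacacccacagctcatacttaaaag
Bst2: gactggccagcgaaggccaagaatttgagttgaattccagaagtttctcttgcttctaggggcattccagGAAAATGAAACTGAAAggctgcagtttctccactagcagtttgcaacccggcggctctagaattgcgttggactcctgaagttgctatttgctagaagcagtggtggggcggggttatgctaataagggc
Trim25: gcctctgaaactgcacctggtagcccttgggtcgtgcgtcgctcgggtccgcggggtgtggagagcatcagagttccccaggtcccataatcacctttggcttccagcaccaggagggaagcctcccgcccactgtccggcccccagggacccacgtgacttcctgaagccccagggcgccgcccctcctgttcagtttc
The windows lie at chr19:34583329-34583528 for Ifit3 (plus strand), chr19:34607757-34607956 for Ifit3b (plus strand), chr19:34640689-34640888 for Ifit1 (plus strand), chr4:156200819-156201018 for Isg15 (minus strand), chr8:71537473-71537672 for Bst2 (minus strand) and chr11:88999203-88999402 for Trim25 (plus strand), each directly upstream of the transcript start of its gene. Ifit3, Ifit3b, Ifit1 and Isg15 had SDs of 1.68, 1.56, 1.22 and 1.25 between iWAT male wells, and Bst2 had 1.10. Trim25, with the smallest SD, holds no match in these letters. The motif did not go with the spread throughout, since Ifitm2 and Ifitm3, with SDs of 0.318 and 0.464, hold 1 and 2 matches from 250 bases before to 50 bases after the start, and Ifi44 and Irf7, with SDs of 1.49 and 1.42, hold none. Oasl2 and Dtx3l, with SDs of 1.27 and 1.19, also hold none. Among the promoters shown, Isg15 holds 3 overlapping matches and the others with a match hold 2.

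A promoter was matched for 33 of the 44 members (others: Usp18, Parp9, Ifi27, Iigp1, Mx1, Mx2, Dhx58, Zbp1, Rtp4, Oas2 and Parp14), and windows ran from 250 bases before to 50 bases after the start. The motif GAAANNGAAA stood on either strand of 18 of the 33 members (54.5%), of 24 of 48 other interferon-stimulated genes and of 3.99% of all 27025 genes with a promoter, counting a gene with several windows by any of them. The motif TTCNNNGAA, that of the gamma-activated site, reads the same on both strands and can overlap the former. It stood in 12 of the 33 members (36.4%), in 6 of the 48 others (12.5%) and in 9.55% of all genes. Interferon-stimulated genes are known for these elements, so the shares describe the list and are no result of the cultures. Among members without the former motif in the window were Isg20, Ifitm1, Oasl1 and Trim25 and the matched windows of Irf7 and Irf1.

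Whether SVF cultures of the depots differed in the members was addressed by setting pgWAT against iWAT with both labelled sexes weighted equally. Of the 42 members tested, 7 (16.7%) passed an FDR below 0.05 in edgeR's quasi-likelihood test, where 38.1% of all 8853 genes passed. Isg20, Zbp1, Ifitm1 and Bst2 were higher in pgWAT, and Dhx58, Oasl1 and Trim25 were lower. Split by direction, 4 members (9.52%) against 20.1% of all genes were higher, and 3 members (7.14%) against 17.9% of all genes were lower. The median log2 fold change of the members was -0.07, beside 0.01 over all genes tested, with 18 members above 0 and 24 below. It was 0.05 (22 of 41 above 0) without iWAT male library 2 and -0.29 (9 of 42 above 0) without pgWAT male library 1. For each of the 44 members the iWAT and pgWAT libraries overlapped, as they did for all but 1.47% (higher in pgWAT) and 0.666% (lower) of the genes tested. Fibroblast and macrophage markers moved with depot, 5 of 6 and 6 of 8 tested being higher in pgWAT, and 7 of 8 proliferation markers were lower there. Summed fibroblast markers ran from 6387 to 12199 CPM in iWAT and from 11687 to 22688 CPM in pgWAT, and no T or NK cell marker had counts enough to be tested. Their part in the members' differences was not tested.

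**Figure D4:**
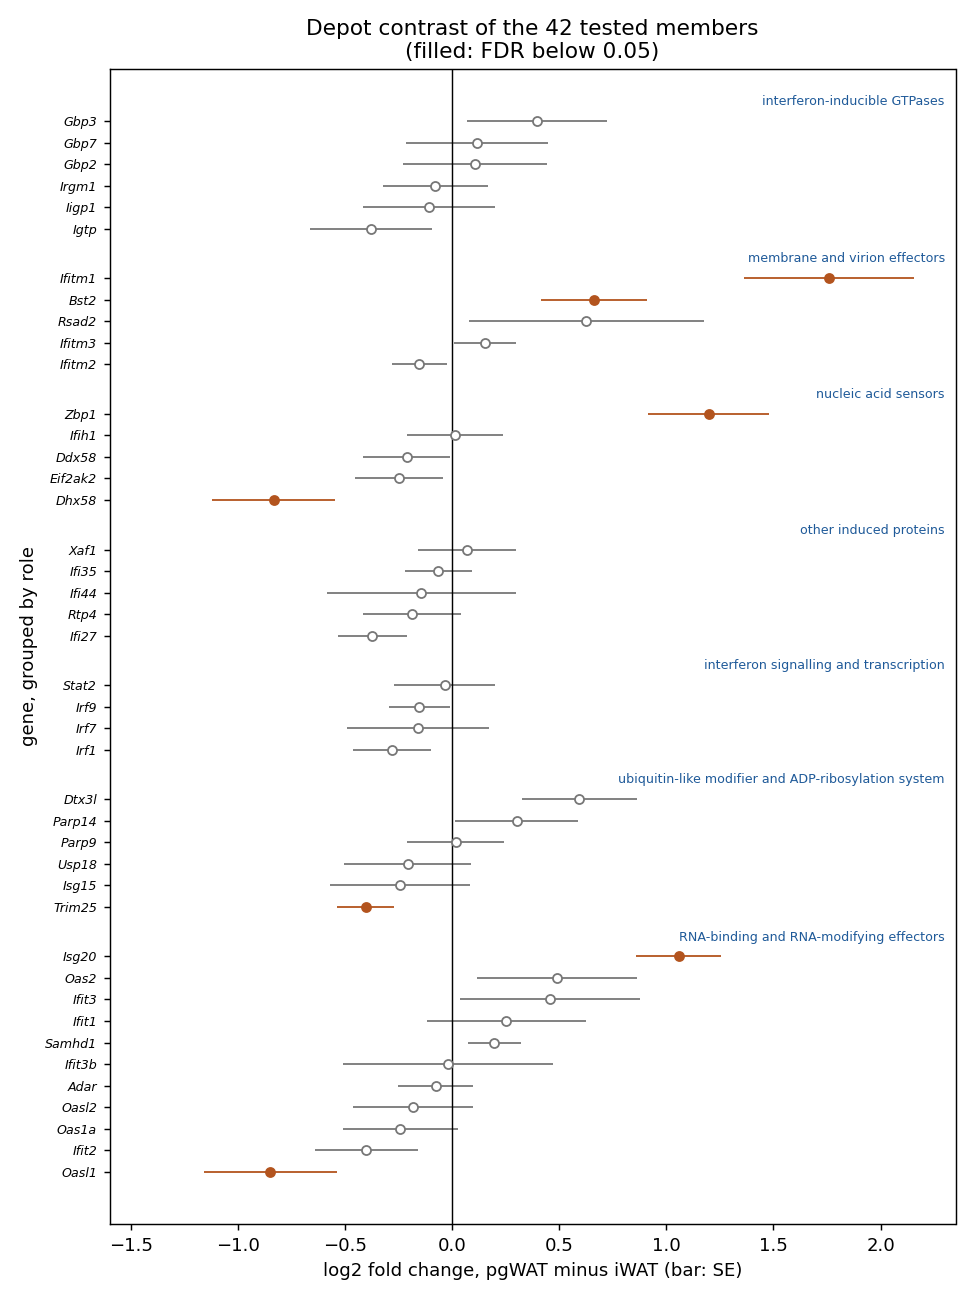
Log2 fold change of pgWAT minus iWAT (x, with SE) for the 42 tested members (y), grouped by role. Filled points passed an FDR below 0.05. Called members lie on both sides of 0, from -0.85 for Oasl1 to 1.76 for Ifitm1.

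Among the 11 effectors that act on RNA, 1 was higher in pgWAT and 1 was lower. Isg20 is an exonuclease that degrades single-stranded RNA. Isg20 had 6.34, 16.1 and 31.3 CPM in iWAT male, 8.08, 12.4 and 27.1 in iWAT female and 20.7, 35.9 and 57.5 in pgWAT female, with 39.9, 25.9, 27.8 and 35.3 in the 4 pgWAT male libraries. Every pgWAT library lay above the iWAT mean of 16.5 CPM, though the lowest overlapped the highest iWAT wells. Its log2 fold change was 1.06 ± 0.20 (SE, FDR = 6.35e-05), and within plate column 8, which compares female groups alone, it was 0.97 and not called (FDR = 0.0760). Oasl1 had 20.8, 60.1 and 168 CPM in iWAT male, 24.7, 50.9 and 78.1 in iWAT female and 12.8, 26.01 and 33.2 in pgWAT female, with 142, 17.3, 29.2 and 13.9 in the 4 pgWAT male libraries. Oasl1, an oligoadenylate synthetase-like protein, was below its iWAT mean of 63.6 CPM in 9 of 10 pgWAT libraries, pgWAT male library 1 being the exception. The log2 fold change was -0.85 ± 0.31 (SE, FDR = 0.0292). Without the 5 pgWAT libraries whose sex-linked transcripts did not match it was -0.42 (FDR = 0.402), and the call was also lost when pgWAT male library 2, 3 or 4 or pgWAT female library 5 was left out.

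The other 9 effectors on RNA did not pass, with FDRs from 0.1998 to 0.981. The IFIT proteins bind the ends of viral RNA. Ifit1 had 15.8, 83.3 and 231 CPM in iWAT male, 7.40, 63.1 and 97.9 in iWAT female and 30.4, 77.9 and 115 in pgWAT female, with 307, 31.1, 19.4 and 28.9 in the 4 pgWAT male libraries. Ifit3 had 12.7, 190.2 and 804 CPM in iWAT male, 19.7, 91.9 and 232 in iWAT female and 76.8, 147 and 312 in pgWAT female, with 760.3, 72.6, 107 and 81.4 in the 4 pgWAT male libraries. Ifit3b had 3.17, 43.1 and 179.95 CPM in iWAT male, 0, 15.5 and 50.8 in iWAT female and 9.60, 18.8 and 39.04 in pgWAT female, with 146, 3.46, 16.7 and 9.64 in the 4 pgWAT male libraries. In all 3 the pgWAT male group was set by library 1, and the depot differences were 0.25 ± 0.37, 0.46 ± 0.42 and -0.02 ± 0.49 (log2, SE). Within plate column 9, which holds pgWAT male libraries 2 and 4, both with contradicting transcripts, and not library 1, Ifit1 was lower in pgWAT at -1.31 (FDR = 0.0456) and Ifit3b at -2.51 (FDR = 0.0193). Ifit2 ranged from 4.52 to 52.8 CPM in iWAT and from 8.64 to 29.5 CPM in pgWAT. The oligoadenylate synthetases make the messenger that activates RNase L. Oas1a had 33.2, 144 and 401 CPM in iWAT male, 61.7, 135 and 245 in iWAT female and 99.2, 144 and 195 in pgWAT female, with 215, 65.7, 135 and 74.95 in the 4 pgWAT male libraries. Oas2 had 0, 12.98 and 48.9 CPM in iWAT male, 2.47, 20.2 and 56.99 in iWAT female and 26.04, 40.4 and 54.98 in pgWAT female, with 48.6, 8.64, 27.8 and 12.8 in the 4 pgWAT male libraries. Oasl2 had 25.3, 128 and 379 CPM in iWAT male, 56.9, 147 and 232 in iWAT female and 96.02, 170.04 and 189 in pgWAT female, with 170.1, 86.4, 86.1 and 72.8 in the 4 pgWAT male libraries. Their depot differences were -0.24 ± 0.27, 0.49 ± 0.37 and -0.18 ± 0.28 on the log2 scale. All 3 were highest in library 2 within iWAT male and in library 1 within pgWAT male. Adar edits adenosine in double-stranded RNA, and Samhd1 hydrolyses the nucleotides that viral polymerases need. Adar had 23.8, 51.9 and 100.5 CPM in iWAT male, 35.9, 47.3 and 70.6 in iWAT female and 35.2, 55.4 and 66.7 in pgWAT female, with 57.3, 31.1, 31.9 and 44.97 in the 4 pgWAT male libraries. Samhd1 had 51.9, 95.4 and 158 CPM in iWAT male, 75.9, 81.8 and 91.9 in iWAT female and 81.5, 105 and 115 in pgWAT female, with 127, 111, 97.2 and 77.1 in the 4 pgWAT male libraries. Both varied less between iWAT male wells than most members, with SDs of 0.617 and 0.480.

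Among 5 nucleic acid sensors, 1 was higher in pgWAT and 1 was lower. Zbp1 recognizes Z-form nucleic acid and can start necroptosis. Zbp1 had 10.4, 29.1 and 155 CPM in iWAT male, 24.7, 38.7 and 135 in iWAT female and 125, 169 and 208 in pgWAT female, with 134, 81.2, 83.3 and 115 in the 4 pgWAT male libraries. All 10 pgWAT libraries were above the iWAT mean of 55.1 CPM. The iWAT wells reaching the pgWAT range were male libraries 1 and 2 and female libraries 6, 7 and 8. The log2 fold change was 1.198 ± 0.282 (SE, FDR = 0.000969), 0.59 in column 8 (FDR = 0.0276) and 1.96 in column 9 (FDR = 0.000542). Dhx58 (LGP2) modulates signalling by the other cytosolic RNA helicases. Dhx58 had 8.31, 56.7 and 160.4 CPM in iWAT male, 14.8, 47.6 and 71.9 in iWAT female and 22.4, 27.2 and 40.1 in pgWAT female, with 55.5, 19.01, 36.1 and 21.4 in the 4 pgWAT male libraries. Of 10 pgWAT libraries 9 were below the iWAT mean of 55.1 CPM, and the log2 fold change was -0.83 ± 0.29 (SE, FDR = 0.0213). The call was lost with limma-voom (FDR = 0.0810), with well column as a factor (FDR = 0.0503), in each column alone, without pgWAT male library 2 or 4, and without the 5 libraries that did not match (-0.56, FDR = 0.274). Ifih1 had 14.5, 38.98 and 74.3 CPM in iWAT male, 18.98, 39.3 and 63.2 in iWAT female and 19.5, 36.7 and 50.4 in pgWAT female, with 81.6, 29.4, 34.7 and 32.1 in the 4 pgWAT male libraries. Ddx58 had 43.6, 109.6 and 243 CPM in iWAT male, 61.7, 113 and 125 in iWAT female and 72.5, 84.2 and 185 in pgWAT female, with 163, 72.6, 99.97 and 66.4 in the 4 pgWAT male libraries. Eif2ak2 had 27.00, 67.3 and 143 CPM in iWAT male, 33.7, 58.99 and 73.9 in iWAT female and 22.4, 48.6 and 87.8 in pgWAT female, with 93.7, 51.9, 54.1 and 57.8 in the 4 pgWAT male libraries. Ifih1 (MDA5), Ddx58 (RIG-I) and the kinase Eif2ak2 (PKR) differed between depots by 0.01 ± 0.22, -0.21 ± 0.20 and -0.25 ± 0.21 (log2, SE), and none was called. Their highest values within the male groups were again those of iWAT male library 2 and pgWAT male library 1.

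Among the 7 membrane and virion effectors, 2 of the 5 tested were higher in pgWAT. Ifitm1 restricts viral entry at the cell surface. Ifitm1 had 0, 1.63 and 13.2 CPM in iWAT male, 0.859, 4.22 and 7.43 in iWAT female and 25.6, 29.2 and 64.98 in pgWAT female, with 5.21, 6.91, 1.39 and 9.64 in the 4 pgWAT male libraries. It rested on few counts, 1 to 9 in the pgWAT male libraries and 8 to 26 in the pgWAT female ones, and its high values were those of the 6 libraries labelled pgWAT female, those with contradicting transcripts included. The depot log2 fold change was 1.76 ± 0.40 (SE, FDR = 0.000628), and 1.16 (FDR = 0.192) without the 5 libraries that did not match. Bst2 had 141, 504 and 1663 CPM in iWAT male, 363, 637 and 1121 in iWAT female and 912, 1331 and 1776 in pgWAT female, with 1009, 639.6, 899.7 and 772 in the 4 pgWAT male libraries. Bst2 was above its iWAT mean of 657 CPM in 9 of 10 pgWAT libraries, and iWAT male library 2 reached the top of the pgWAT range. Its log2 fold change was 0.66 ± 0.25 (SE, FDR = 0.0324), and leaving out pgWAT male library 1 or 3 or pgWAT female library 4 or 6 ended the call, with FDRs of 0.0509 to 0.0716. Ifitm2 had 1088, 1748 and 2189 CPM in iWAT male, 1206, 1316 and 1826 in iWAT female and 1029.9, 1530.5 and 2144 in pgWAT female, with 1837, 854, 1318 and 777 in the 4 pgWAT male libraries. Ifitm3 had 1346, 2319.6 and 4317 CPM in iWAT male, 1852, 2173 and 3066 in iWAT female and 2638, 3130.4 and 4236 in pgWAT female, with 3079.5, 1443, 2829.6 and 1405 in the 4 pgWAT male libraries. These abundant members were among those with the smallest SD between iWAT male wells, and they differed between depots by -0.15 ± 0.13 and 0.15 ± 0.14 (log2, SE). Rsad2, an enzyme that makes a chain-terminating nucleotide, ranged from 0 to 64.5 CPM in iWAT and from 0 to 111 CPM in pgWAT, with its highest pgWAT value in male library 1. Mx1 reached 9.78 CPM in iWAT and 19.1 CPM in pgWAT, and Mx2 reached 13.7 and 15.6 CPM.

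In the ubiquitin-like modifier and ADP-ribosylation system, 1 of 6 members was called. Trim25 was lower in pgWAT. Trim25 had 72.7, 109.95 and 119 CPM in iWAT male, 56.8, 79.9 and 124 in iWAT female and 63.6, 67.1 and 87.8 in pgWAT female, with 104, 51.9, 73.6 and 53.5 in the 4 pgWAT male libraries. Of 10 pgWAT libraries 9 were below the iWAT mean of 94.7 CPM, and only pgWAT male library 1 was above it. The log2 fold change was -0.40 ± 0.13 (SE, FDR = 0.0144) and -0.27 (FDR = 0.248) without the 5 libraries that did not match. Isg15 had 49.9, 272 and 1033 CPM in iWAT male, 123, 265 and 628 in iWAT female and 211, 312 and 488 in pgWAT female, with 528, 88.2, 254 and 102 in the 4 pgWAT male libraries. Usp18 had 19.01, 103 and 379 CPM in iWAT male, 51.8, 109 and 193 in iWAT female and 49.9, 92.97 and 205 in pgWAT female, with 241, 63.96, 81.9 and 56.8 in the 4 pgWAT male libraries. Isg15 and its protease Usp18 were not called between depots, at -0.24 ± 0.33 and -0.21 ± 0.30 (log2, SE). Library 2 of iWAT male and library 1 of pgWAT male held the highest value of both. Parp9 and Dtx3l form a complex of an ADP-ribosyltransferase and a ubiquitin ligase, and Parp14 is a further ADP-ribosyltransferase. Parp9 had 10.4, 30.3 and 91.9 CPM in iWAT male, 29.5, 36.3 and 59.5 in iWAT female and 19.2, 39.9 and 55.3 in pgWAT female, with 46.9, 22.5, 40.3 and 48.2 in the 4 pgWAT male libraries. Dtx3l had 0, 22.8 and 52.8 CPM in iWAT male, 12.7, 20.4 and 29.8 in iWAT female and 19.2, 36.7 and 77.5 in pgWAT female, with 46.9, 31.1, 11.1 and 29.98 in the 4 pgWAT male libraries. Parp14 had 10.4, 55.4 and 172 CPM in iWAT male, 14.8, 38.6 and 94.2 in iWAT female and 47.5, 55.7 and 65.1 in pgWAT female, with 177, 22.5, 68.03 and 43.9 in the 4 pgWAT male libraries. Within pgWAT male, Parp9 was highest in library 4, and Dtx3l and Parp14 were highest in library 1. Dtx3l was above the iWAT mean in 8 of 10 pgWAT libraries at 0.59 ± 0.27 (SE, FDR = 0.0780), and it passed without iWAT male library 2 or 5 or pgWAT male library 3.

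None of the 4 signalling and transcription members, the 5 other induced proteins or the 6 interferon-inducible GTPases was called. Irf1 had 10.4, 57.3 and 69.1 CPM in iWAT male, 42.2, 63.5 and 89.5 in iWAT female and 32.5, 47.99 and 54.2 in pgWAT female, with 60.8, 25.9, 65.3 and 39.6 in the 4 pgWAT male libraries. Irf7 had 51.9, 208 and 917 CPM in iWAT male, 74.03, 296 and 384 in iWAT female and 237, 306 and 499.8 in pgWAT female, with 264, 150.4, 218 and 115 in the 4 pgWAT male libraries. Irf1 and Irf7 are transcription factors that are themselves induced. In iWAT male, Irf7 was highest in library 2 and lowest in library 7, whereas Irf1 was highest in library 5. Irf9 had 45.7, 83.2 and 137 CPM in iWAT male, 59.2, 93.9 and 122 in iWAT female and 68.3, 94.1 and 117 in pgWAT female, with 85.1, 76.1, 74.98 and 57.8 in the 4 pgWAT male libraries. Stat2 had 20.8, 63.01 and 158 CPM in iWAT male, 24.7, 64.8 and 131 in iWAT female and 70.4, 80.2 and 99.97 in pgWAT female, with 92.00, 57.04, 48.6 and 52.5 in the 4 pgWAT male libraries. Depot differences of Irf1, Irf7, Irf9 and Stat2 were -0.28 ± 0.18, -0.16 ± 0.33, -0.15 ± 0.14 and -0.04 ± 0.23 (log2, SE), with FDRs from 0.230 to 0.923. Of the other induced proteins, Xaf1 binds an inhibitor of apoptosis and Rtp4 is a chaperone of receptors. Ifi35 had 56.1, 80.6 and 179.95 CPM in iWAT male, 69.6, 94.99 and 119 in iWAT female and 77.5, 87.1 and 120.4 in pgWAT female, with 137, 79.5, 106 and 56.8 in the 4 pgWAT male libraries. Ifi44 had 0, 12.7 and 84.1 CPM in iWAT male, 0, 20.1 and 38.4 in iWAT female and 6.40, 30.05 and 35.8 in pgWAT female, with 31.2, 6.91, 9.72 and 8.57 in the 4 pgWAT male libraries. Ifi27 had 166, 320.1 and 399.7 CPM in iWAT male, 154, 251 and 292 in iWAT female and 85.9, 165 and 299 in pgWAT female, with 323, 194, 317 and 188 in the 4 pgWAT male libraries. The iWAT mean of Ifi27 was 277 CPM, and 7 of 10 pgWAT libraries were below it, at -0.37 ± 0.16 (SE, FDR = 0.0679). Ifi27 was called lower in 15 of the 41 other settings tried and not called in 26. Of the 15, 7 left out 1 library. Column 8 alone (-0.82, FDR = 0.00585) and column 9 alone (-0.73, FDR = 0.00467) were also among the 15. Xaf1 had 32.5, 83.3 and 225 CPM in iWAT male, 37.01, 72.7 and 142 in iWAT female and 81.5, 94.5 and 124 in pgWAT female, with 132, 81.2, 72.2 and 64.2 in the 4 pgWAT male libraries. Rtp4 had 22.8, 113 and 217 CPM in iWAT male, 67.5, 104 and 144 in iWAT female and 67.2, 112 and 152 in pgWAT female, with 149, 48.4, 80.5 and 54.6 in the 4 pgWAT male libraries. Xaf1 and Rtp4 differed by 0.07 ± 0.23 and -0.19 ± 0.23 (log2, SE).

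The guanylate-binding proteins and immunity-related GTPases attack the vacuoles of intracellular microbes. Gbp2 had 3.17, 29.7 and 119 CPM in iWAT male, 0, 22.6 and 35.9 in iWAT female and 17.4, 28.4 and 42.97 in pgWAT female, with 78.1, 22.5, 24.99 and 25.7 in the 4 pgWAT male libraries. Gbp3 had 10.8, 33.9 and 135 CPM in iWAT male, 6.33, 23.2 and 36.9 in iWAT female and 22.4, 42.2 and 87.8 in pgWAT female, with 97.2, 25.9, 37.5 and 12.8 in the 4 pgWAT male libraries. Both were highest in iWAT male library 2 within iWAT and in pgWAT male library 1 within their group. Gbp7 ranged from 0 to 41.1 CPM in iWAT and from 5.19 to 24.3 CPM in pgWAT. Iigp1 had 3.17, 30.4 and 62.6 CPM in iWAT male, 2.47, 20.4 and 33.5 in iWAT female and 6.40, 21.2 and 22.8 in pgWAT female, with 67.7, 17.3, 18.05 and 24.6 in the 4 pgWAT male libraries. Igtp had 25.4, 34.7 and 166 CPM in iWAT male, 22.2, 42.2 and 86.7 in iWAT female and 21.7, 37.4 and 47.4 in pgWAT female, with 92.00, 31.1, 40.3 and 10.7 in the 4 pgWAT male libraries. Irgm1 had 25.3, 93.05 and 307 CPM in iWAT male, 59.1, 120.3 and 151 in iWAT female and 60.8, 124 and 160.04 in pgWAT female, with 161, 76.1, 81.9 and 88.9 in the 4 pgWAT male libraries. The depot differences of the 6 ran from -0.38 ± 0.29 for Igtp to 0.40 ± 0.33 for Gbp3 (log2, SE), with FDRs from 0.313 to 0.834.

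**Figure D5:**
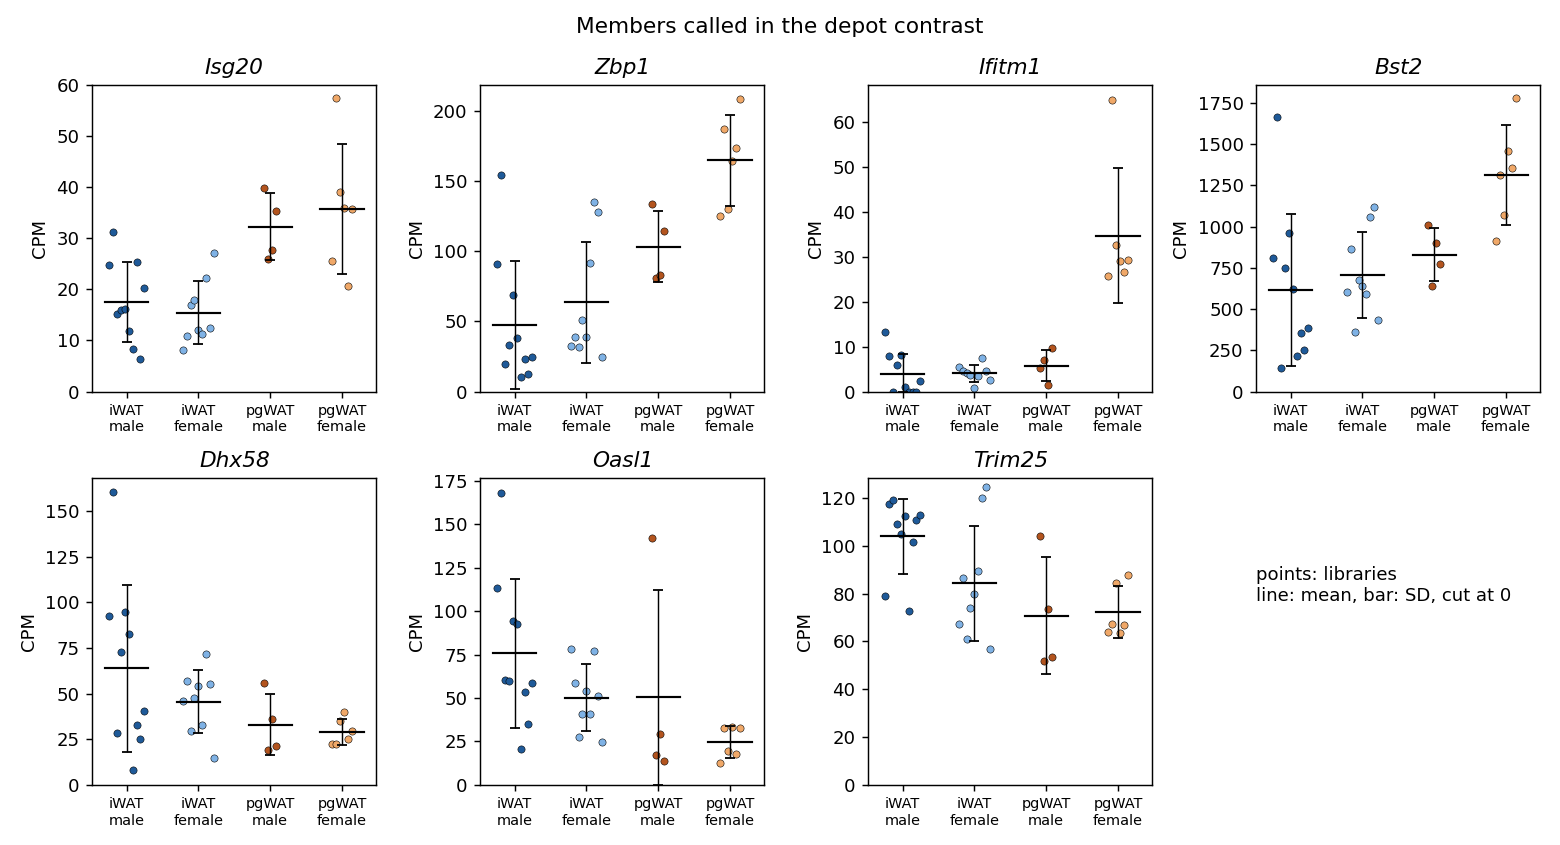
CPM (y, linear axis from 0) of the 7 members called in the depot contrast in each group (x), 1 point per library, with mean (line) and SD (bar, cut at 0). Isg20 and Zbp1 lie above the iWAT mean in all 10 pgWAT libraries, and Ifitm1 is high in pgWAT female alone, at 25.6 to 65.0 CPM.

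Well column was looked at beside the pooled result. The labels also give the well row, which was not put into the contrasts. In column 8 alone, where female groups can be compared, 7 of 43 members were called (4 higher, 3 lower) where 14% of all genes were. In column 9 alone, where groups labelled male can be compared, 9 of 40 members were called (3 higher, 6 lower) where 23.2% of all genes were. Both pgWAT libraries there, male 2 and 4, carried sex-linked transcripts against their label and the 3 iWAT libraries did not, so depot and sex cannot be told apart in that column. Among the called members not yet given by column, Ifitm1, Bst2, Oasl1 and Trim25 stood at 2.43, 0.72, -1.05 and -0.67 (log2) in column 8, and Isg20, Bst2, Oasl1 and Trim25 at 1.38, 1.05, -2.01 and -0.96 in column 9, each called there. Gbp3 was also called in column 8 (1.08, FDR = 0.0275) and Ifitm2 in column 9 (-0.69, FDR = 0.00489). Columns 7 and 10 held no pair of groups for the depot contrast with replicates on both sides. Without the 5 pgWAT libraries that did not match, 4 of 42 members were called where 23.7% of all genes were. Isg20, Zbp1 and Bst2 stayed higher, Ifitm1 and all 3 lower members (Dhx58, Oasl1 and Trim25) lost their call, and the 1 lower member was Ifi27 (-0.60, FDR = 0.00572), which the full data did not call. Without iWAT male library 2 and pgWAT male library 1, a setting chosen after seeing the data, 8 of 41 were called (4 higher, 4 lower) where 36.6% of all genes were, with a median log2 fold change of -0.15.

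Male and female libraries were compared within each depot. In iWAT none of the 42 members passed (edgeR, FDR below 0.05) where 3.22% of all genes did, and 5 had an unadjusted p under 0.05. By direction, 1.08% of all genes were higher and 2.13% lower in male libraries. The 5 were Ifit3b at 1.59 ± 0.54 (log2, male minus female, SE, FDR = 0.0996), Gbp3 at 0.96 ± 0.39, Rsad2 at 1.56 ± 0.64, Ifit3 at 1.14 ± 0.50 and Gbp2 at 0.85 ± 0.38. With limma-voom and DESeq2 the count was also 0, with 3 and 4 members at an unadjusted p under 0.05. The median over the members was 0.23, beside 0.01 over all genes, and 34 of 42 were above 0. Without iWAT male library 2 the median was -0.02 and 20 of 41 were above 0. With well column as a factor, 6 members were higher in male libraries where 5.6% of all genes were called, namely Ifit3b, Rsad2, Trim25, Parp14, Ifit3 and Gbp3. In column 7 alone, which holds 7 male and 4 female wells, none of 41 was called where 2.66% of all genes were. Macrophage markers moved with labelled sex in iWAT, with sums of 1504 to 2541 CPM in male and 656 to 1165 CPM in female libraries. Their part was not tested.

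In pgWAT none of the members passed (edgeR, FDR below 0.05) where 0.0113% of all genes did, and 4 had an unadjusted p under 0.05. Ifitm1 had the smallest, with a log2 difference of -2.50 ± 0.57 (male minus female, SE, FDR = 0.132). Its groups did not overlap, with 5.21, 6.91, 1.39 and 9.64 CPM in libraries labelled male and 25.6 to 64.98 CPM in libraries labelled female, as held for 0.836% of all genes in that direction and for 0.689% in the other, where no member stood. The low libraries followed the label and not the sex-linked transcripts. At the ends of that gap, pgWAT male library 4 had 9 counts, a 95% exact Poisson interval of 4.41 to 18.3 CPM, and pgWAT female library 1 had 8 counts, an interval of 11.1 to 50.5 CPM, so that these intervals overlapped. The median over the members was -0.08 with 18 of 42 above 0, and -0.57 with 4 of 42 above 0 without pgWAT male library 1. Limma-voom called Ifitm1 at an FDR of 0.0369, where 0.0678% of all genes were called. DESeq2 called 0 members, with 5 at an unadjusted p under 0.05. Without the 5 libraries that did not match, which leaves male libraries 1 and 3 and female libraries 4 to 6, Ifitm1 was called at -3.12 (FDR = 0.0446) and Ifi27 at 1.61 (FDR = 0.000149), where 5.63% of all genes were called. No member passed the test of a difference between these sex contrasts (depot by sex interaction, edgeR, 0 called where 0.181% of all genes were and 0.0791% with a value below 0, 3 with an unadjusted p under 0.05). Ifitm1 had the largest interaction, -2.58 ± 0.79 (log2, SE, FDR = 0.245). With limma-voom and DESeq2 the interaction gave 0 and 0 members, with 3 and 3 at an unadjusted p under 0.05.

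The rest of the pathway was read from lists, to be set against the 38.1% of all genes called between depots (20.1% higher, 17.9% lower). Of 5 tested interferon receptor subunits, 1 was higher and 2 were lower in pgWAT. Ifnar2, a subunit of the type I receptor, ran from 6.77 to 46.9 CPM in iWAT and from 39.99 to 78.1 CPM in pgWAT, a log2 fold change of 1.17 ± 0.19 (SE, FDR = 1.06e-05). The subunits of the type II receptor were lower, Ifngr1 at -0.69 ± 0.15 (SE, FDR = 0.000577) and Ifngr2 at -0.45 ± 0.18 (SE, FDR = 0.0471). Ifnar1 was not called, at -0.19 ± 0.13 (SE, FDR = 0.251). Of 6 kinases and factors downstream, Stat3 and Jak1 were higher in pgWAT, at 0.73 ± 0.11 (SE, FDR = 2.53e-06) and 0.45 ± 0.10 (SE, FDR = 0.000361). Among 7 tested upstream sensors and adaptors, Ikbke was higher at 0.53 ± 0.20 (SE, FDR = 0.0314). Among 5 negative regulators, Socs3, which blocks Jak kinases, was higher at 1.59 ± 0.23 (SE, FDR = 1.04e-06), with 4.52 to 56.5 CPM in iWAT and 31.9 to 104 CPM in pgWAT. Of 46 tested interferon-stimulated genes outside the set, 9 were called, 7 higher and 2 lower, a smaller share than the 38.1% of all genes. The largest changes were those of Ifi27l2a at 1.68 ± 0.35 (SE, FDR = 0.000259), Slfn2 at 1.23 ± 0.17 (SE, FDR = 4.39e-07) and Tdrd7 at -0.94 ± 0.20 (SE, FDR = 0.000338). The median log2 fold change of these 46 genes was -0.03. In the iWAT sex contrast, Irf5 alone was called in the pathway lists, higher in male libraries at 1.37 ± 0.36 (log2, SE, FDR = 0.0244).

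Some members share sequence with near copies, so that the authors' quantification could split reads between them. Of the 31-base words in transcripts of Ifit3, 61.8% also occur in Ifit3b, 68.7% of those of Oas1a occur in Oas1g, and 55.5% of those of Ifitm2 occur elsewhere, mainly in pseudogenes that had 0 and 5 counts. Values of Ifit3, Ifit3b and Oas1a are uncertain to that extent. With such copies summed, 7 members were called in the depot contrast, as before.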

How the data were processed

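Bulk Smart-seq3 libraries were deposited as 1 table of expected counts per gene (Salmon estimates on the mouse build GRCm39, rounded here to whole counts), which the authors made after trimming adapters from reads with and without molecular identifiers. The submitters' processing notes name STAR 2.7.10a, Salmon 1.9.0, FastQC 0.11.9 and MultiQC 1.12. No column was left out, and 85.1% of the nonzero values were whole to within 1e-06.

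Groups follow the labels. In edgeR 4.0.16 (R 4.3.3) genes were filtered with filterByExpr, leaving 8853 of 56953 features, totals were scaled by TMM (factors 0.949 to 1.06), and quasi-likelihood tests were fitted with 1 mean per group over all 29 libraries, with Benjamini-Hochberg adjustment over all genes tested and calls at an FDR below 0.05. CPM are counts divided by the scaled total. Log2 CPM of single libraries carry a prior count. DESeq2 1.42.0, limma-voom (limma 3.58.1), other scaling and filters, well column, libraries left out and summed near copies were alternatives. The script was tested on simulated counts.

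The members and lists were chosen with earlier results of these data known. Values per group are printed for members called in any contrast and for those with a mean of at least 20 CPM. Others are given by ranges. Of each pathway list up to 3 called genes with the largest change are named, and Ifnar1 and Cxcl10 were added after their values were seen. Groups of wells and libraries that stood apart were also picked from the data. Promoters and names come from RefSeq tables and transcript lengths and shared words from GENCODE M21, both on GRCm38, and no coordinates of the count table were used.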

Additional observations from a re-analysis of the deposited data

Results flagged for a closer look

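Of 168 sets of 4 to 10 libraries examined (42 members in 4 groups), 14 had a library far from the others on the log2 scale, and chance gives about 1 in 20. Ifit1 had 307 CPM in pgWAT male library 1, above 19.4 to 31.1 CPM in the other libraries of that group. Ifit2 had 4.52 CPM in iWAT male library 10, below 15.8 to 52.8 CPM in the other libraries of that group. Ifit3 had 760.3 CPM in pgWAT male library 1, above 72.6 to 107 CPM in the other libraries of that group. Ifit3b had 0 CPM in iWAT female library 9, below 7.94 to 50.8 CPM in the other libraries of that group. Irf1 had 10.4 CPM in iWAT male library 7, below 32.5 to 69.1 CPM in the other libraries of that group. Ifi27 had 166 CPM in iWAT male library 2, below 288 to 399.7 CPM in the other libraries of that group. Ifih1 had 81.6 CPM in pgWAT male library 1, above 29.4 to 34.7 CPM in the other libraries of that group. Oasl2 had 96.0 CPM in pgWAT female library 1, below 148 to 189 CPM in the other libraries of that group. Ifitm1 had 0.859 CPM in iWAT female library 5, below 2.47 to 7.43 CPM in the other libraries of that group. Ifitm1 had 65.0 CPM in pgWAT female library 2, above 25.6 to 32.5 CPM in the other libraries of that group. Dtx3l had 0 CPM in iWAT male library 8, below 9.03 to 52.8 CPM in the other libraries of that group. Gbp2 had 0 CPM in iWAT female library 3, below 12.3 to 35.9 CPM in the other libraries of that group. Gbp2 had 78.1 CPM in pgWAT male library 1, above 22.5 to 25.7 CPM in the other libraries of that group. Iigp1 had 2.47 CPM in iWAT female library 9, below 15.4 to 33.5 CPM in the other libraries of that group. Library 1 of pgWAT male accounts for 4 of the 14. Values of 0 rest on the depth of the library, since 3 counts stood for 2.58 to 9.76 CPM.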

How the results depend on the processing

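In the depot contrast 4 members were called in place of 7 without the 5 pgWAT libraries whose sex-linked transcripts did not match. Of the 7, Isg20, Zbp1 and Bst2 kept their call, Dhx58, Oasl1, Trim25 and Ifitm1 lost it, and Ifi27 was newly called lower, with a median of 0.17 over the members and 33 of 42 above 0, against -0.07 and 18 in the full data. Leaving out 1 library at a time gave 5 calls (without pgWAT male library 2, and also without library 4) to 9 (without iWAT male library 2). Of all genes, 34%, 33.1% and 37.6% were called in these 3 settings. Other settings gave 6 to 9, and Zbp1 was called in all. Within well column 9 alone Ifit1 reversed to -1.31 (FDR = 0.0456), in a comparison of 2 pgWAT libraries, both with contradicting transcripts, with 3 iWAT libraries. In the iWAT sex contrast the count of 0 became 5 with no filter on low counts, where 1.92% of all genes were called. The 5 were Mx1, Rsad2, Gbp3, Ifit3b and Ifit3. It became 6 with well column as a factor (5.6% of all genes) and 1 (Ifit3b) with the iWAT groups alone (5.74% of all genes). Leaving out 1 library gave 0 to 1. In the pgWAT sex contrast the count of 0 became 1 with no filter (0.223% of all genes) and 1 with limma-voom (0.0678% of all genes), Ifitm1 both times. Without the libraries that did not match it became 2 (Ifitm1 and Ifi27), where 5.63% of all genes were called. Leaving out 1 library gave 0. The interaction gave 0 in every setting that could be fitted. The causes of these changes were not tested. No paired analysis was possible because the labels give well positions and no replicate numbers.

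The wells are not independent animals, experiments are not identified in the labels, and the labelled sex of 5 of 10 pgWAT libraries is contradicted or unclear. Members near the limit of 2.58 to 9.76 CPM that a count of 0 allows, such as Mx1, Rsad2 and Ifitm1, carry large counting error.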
